A study of Mus musculus with 53 samples.

Results

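The muscle actins and alpha-actinins are 8 genes of the mouse, taken by name and not by any measured value. The actins are Acta1 (ENSMUSG00000031972.5), Actc1 (ENSMUSG00000068614.7), Acta2 (ENSMUSG00000035783.9) and Actg2 (ENSMUSG00000059430.14). The alpha-actinins are Actn1 (ENSMUSG00000015143.15), Actn2 (ENSMUSG00000052374.16), Actn3 (ENSMUSG00000006457.4) and Actn4 (ENSMUSG00000054808.15). Each was found in the data, among 55573 genes of the bulk tables and 57010 genes of the single-cell matrices. They were followed in cerebella of newborn mice that lacked Insm1, or Tead1 and Tead2 together, in the cells marked by Atoh1Cre. Insm1 encodes a zinc-finger transcription factor of developing neurons, and Tead1 and Tead2 encode the DNA-binding partners of YAP and TAZ.

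At postnatal day 2 (P2), stranded total RNA was sequenced from cerebella of individual pups: 4 Insm1fl/fl controls, 4 Insm1 mutants carrying Atoh1Cre with Insm1fl/fl, 3 Tead1fl/fl;Tead2fl/fl controls and 4 Tead1/2 mutants carrying Atoh1Cre with the same floxed alleles. At postnatal day 7 (P7), 10 single-cell libraries, each from 1 cerebellum, had the same genotypes, with 2 control and 3 mutant libraries for Insm1 and likewise 2 and 3 for Tead1/2. In every group the library numbered 1 held all lobules, and the others lacked lobules IX and X. Every group carried floxed alleles, including the controls, and the controls lacked Cre. Atoh1Cre recombines in the granule cell lineage of the rhombic lip, so cells of other origin keep the floxed genes. The Insm1 and Tead1/2 pups were in different batches at P2 by the labels, so at P2 the allele and the batch cannot be told apart.

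Actin monomers assemble into filaments, and in striated muscle these thin filaments slide past myosin and are anchored at the Z-disc by alpha-actinin. Acta1 encodes skeletal actin and Actc1 cardiac actin, which developing skeletal muscle also uses. Acta2 and Actg2 encode smooth muscle actins, and Acta2 is also made early in skeletal muscle development. Actn2 and Actn3 encode the sarcomeric alpha-actinins of the Z-disc, Actn3 being the form of fast fibres. Actn1 and Actn4 encode non-muscle alpha-actinins that crosslink filaments at adhesions, stress fibres and the cell cortex. The cerebellum has no skeletal muscle, and its Acta2 is known from the mural cells of vessels.

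The windows before the start sites of the 4 genes that rose most are shown because striated muscle genes are known targets of serum response factor, which binds the CArG box, of TEAD proteins, which bind the MCAT motif, and of myogenic helix-loop-helix factors, which bind E-boxes. RefSeq windows of build GRCm38.p6 were found for 6 members, and Actg2 and Actn3 were not matched. Each line gives the 250 bases before the start, read 5′ to 3′ on the minus strand of the genome, on which all 4 genes lie. Capitals mark exact matches of the CArG box, taken as CCWWWWWWGG with W for A or T, and of the MCAT motif, on either strand.
Acta1, chr8:123894776-123895025: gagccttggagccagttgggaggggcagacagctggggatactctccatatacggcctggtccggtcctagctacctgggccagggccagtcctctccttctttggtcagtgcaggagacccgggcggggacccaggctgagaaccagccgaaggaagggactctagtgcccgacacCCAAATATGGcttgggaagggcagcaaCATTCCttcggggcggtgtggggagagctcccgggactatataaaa
Actc1, chr2:114052876-114053125: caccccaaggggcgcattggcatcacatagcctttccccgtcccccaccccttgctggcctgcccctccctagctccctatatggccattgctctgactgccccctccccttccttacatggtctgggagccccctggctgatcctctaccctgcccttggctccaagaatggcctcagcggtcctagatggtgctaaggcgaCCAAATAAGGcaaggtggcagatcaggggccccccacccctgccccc
Acta2, chr19:34255374-34255623: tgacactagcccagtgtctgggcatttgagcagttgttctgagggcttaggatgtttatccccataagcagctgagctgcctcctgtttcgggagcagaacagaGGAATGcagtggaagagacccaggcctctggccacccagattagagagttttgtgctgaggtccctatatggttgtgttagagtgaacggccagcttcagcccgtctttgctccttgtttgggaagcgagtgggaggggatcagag
Actn2, chr13:12340733-12340982: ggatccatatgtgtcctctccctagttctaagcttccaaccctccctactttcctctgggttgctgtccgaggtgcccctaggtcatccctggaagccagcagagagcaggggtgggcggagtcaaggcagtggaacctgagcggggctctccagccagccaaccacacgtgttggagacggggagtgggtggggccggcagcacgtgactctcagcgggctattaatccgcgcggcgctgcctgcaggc

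The Acta1 window held a CArG box at -73 to -64 and an MCAT motif (CATTCC) at -46 to -41, counted from the start site. The Actc1 window held a CArG box at -47 to -38 and neither other motif. The Acta2 window held an MCAT motif on the reverse strand at -146 to -141 and 3 E-boxes (CANNTG). The Actn2 window held 3 E-boxes and neither other motif, and the Acta1 window held 2 E-boxes. Of the non-muscle forms, the Actn1 window held 1 E-box and the Actn4 window held 1 E-box and 1 MCAT motif. Among 32851 windows of the same length, 1.47% held a CArG box, 12.64% an MCAT motif and 66.22% an E-box, on either strand and with overlapping motifs counted. Near matches of the CArG box with another base inside, such as ccctatatgg in the Acta2 and Actc1 windows, were not counted. A window without a counted box can thus hold a looser form. These matches describe letters only, and their use was not measured.

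The bulk libraries held 28066643 to 64518751 expected counts. Levels are given as CPM, counts scaled to the total, which is adjusted by TMM factors for libraries and for sums over kept, granule-lineage or muscle-transcript cells and is the plain UMI total for classes and clusters of cells. Insm1 CPM were 30.8 to 71.9 in the Insm1 controls and 8.44 to 16.1 in the Insm1 mutants at P2. Tead1 (34.7 to 53.8 CPM in the controls, 36.9 to 50.2 in the mutants) and Tead2 (22.3 to 25.7 and 17.4 to 25.9) did not separate the groups, and counts over whole genes that include undeleted exons check no label. The library labelled Tead1/2 mutant 4 stood apart: its 30 skeletal muscle marker genes summed to 49.0 CPM, against 51.4 to 55.5 in the Tead1/2 controls and 192 to 246 in Tead1/2 mutants 1 to 3. For Acta1, Actc1, Acta2 and Actn2 and for the partner lists, tests that rest on it are given with and without it. Correlations over the P2 libraries include it. It stood apart by muscle genes themselves, so tests of muscle genes without it depend on that choice. At P7, 47642 of 79838 cells that passed filters on depth were kept after cells with a high doublet score were removed, 26.6% to 48.6% of each library, and libraries shared 0 barcodes. The kept cells had a median of 4463.5 to 7832 UMIs (unique transcript counts) per library and the removed cells 17430 to 27458. Clusters with cerebellar markers were found, among them 11624 granule progenitor-like, 12482 granule neuron-like and 29 Purkinje-like cells.

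In Insm1 mutants at P2 the striated actins, Acta2 and the sarcomeric Actn2 rose, while the non-muscle alpha-actinins did not pass the test. Skeletal actin Acta1 stood at 1.11, 1.48, 1.05 and 1.08 CPM in the 4 controls and at 6.74, 4.91, 3.36 and 5.87 CPM in the 4 mutants. Every mutant lay above every control, and the rise was 4.44-fold (log2 change 2.15, SE 0.23, adjusted p 0.002592 by edgeR's quasi-likelihood test with Benjamini-Hochberg adjustment). Cardiac actin Actc1 stood at 1.25, 5.39, 0.752 and 0.479 CPM in the controls and at 44.9, 41.5, 26.1 and 40.5 CPM in the mutants. Control 2 was the highest control and still lay below every mutant. The rise of Actc1 was 19.2-fold (log2 change 4.26, SE 0.55, adjusted p 0.006302), and the log2 change was 5.49 without control 2. In bulk tissue more cells of a type and more RNA per cell cannot be told apart. The p-values measure the spread between individual pups.

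Smooth muscle actin Acta2 stood at 1.09, 2.23, 1.503 and 1.26 CPM in Insm1 controls and 7.42, 6.93, 4.13 and 5.58 CPM in Insm1 mutants. The groups did not overlap, and Acta2 rose 3.98-fold (log2 change 1.99, SE 0.25, adjusted p 0.005533). Actn2, the Z-disc crosslinker of striated muscle, stood at 1.59, 1.39, 0.962 and 1.80 CPM in the controls and at 3.77, 5.41, 2.90 and 4.85 CPM in the mutants. Again every mutant was higher, by 2.95-fold on the fitted scale (log2 change 1.56, SE 0.24, adjusted p 0.01613). That call was lost without control 1 (adjusted p 0.05455), control 2 (0.05527) or mutant 4 (0.06237). Thus 4 of the 7 tested members rose and 0 fell, where 0.48% of 19582 genes rose. The median log2 change was 1.56 over the tested members and 0.01 over all genes tested.

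The remaining members overlapped between the Insm1 groups at P2. Actn1, a non-muscle form, stood at 28.5, 23.3, 19.6 and 27.3 CPM in controls and 17.0, 26.3, 20.6 and 22.7 CPM in mutants (log2 change -0.19, adjusted p 0.7315). Actn4, the other non-muscle form, stood at 83.1, 66.2, 58.3 and 90.4 CPM in controls and 44.3, 72.2, 56.4 and 70.1 CPM in mutants (log2 change -0.29, adjusted p 0.6569). Fast-fibre Actn3 was between 0.701 and 1.53 CPM in all 8 libraries (log2 change -0.22, adjusted p 0.8275). Enteric smooth muscle actin Actg2 had 2 to 12 counts in each P2 library and was below the filter on low counts in every comparison. The cytoplasmic actins, which every cell uses, had log2 changes of -0.03 for Actb (adjusted p 0.9161) and -0.08 for Actg1 (adjusted p 0.721).

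**Figure D1:**
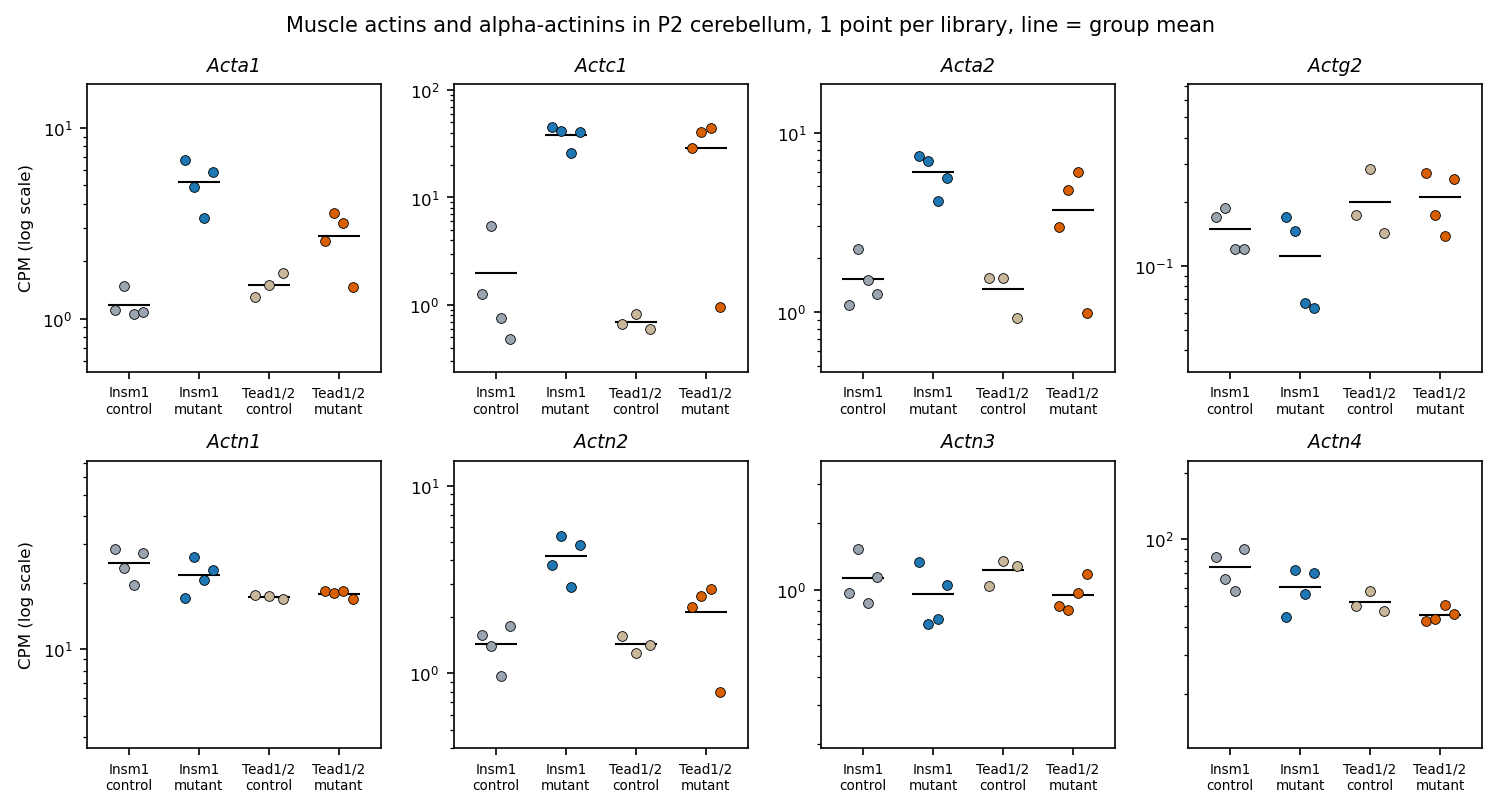
CPM on a log axis for the 8 members in 15 P2 bulk libraries, with 1 point per library and a line at each group mean. Acta1, Actc1, Acta2 and Actn2 lie higher in all 4 Insm1 mutants than in all 4 Insm1 controls, and 1 Tead1/2 mutant lies with the Tead1/2 controls for Actc1 (0.957 CPM).

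With all 4 Tead1/2 mutants at P2, 0 members passed the test, and 3 of the 4 mutants carried the same rise in Actc1. Actc1 stood at 0.671, 0.831 and 0.603 CPM in the 3 controls and at 28.9, 40.2, 44.4 and 0.957 CPM in the 4 mutants. The library labelled Tead1/2 mutant 4 was thus near the controls, and the other mutants were far above them. The log2 change of Actc1 was 5.33 (SE 1.04, adjusted p 0.08984), and 5.72 without that library (SE 0.21, adjusted p 1.42e-06, a 52.8-fold rise). With all libraries the share of genes called by edgeR was 0.0% of 20247, 4052 of them had an unadjusted p under 0.05, and 4 members did (Acta1, Actc1, Acta2 and Actn4). DESeq2 called 960 genes, among them Actc1 and Acta1.

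Acta1 stood at 1.29, 1.495 and 1.74 CPM in the Tead1/2 controls and at 2.56, 3.56, 3.19 and 1.47 CPM in the mutants. Acta2 stood at 1.54, 1.54 and 0.923 CPM in the controls and at 2.97, 4.76, 5.99 and 0.989 CPM in the mutants. Actn2 stood at 1.59, 1.28 and 1.42 CPM in the controls and at 2.27, 2.59, 2.80 and 0.797 CPM in the mutants. For these 3 genes as well, mutants 1 to 3 lay above every control and the library labelled mutant 4 lay within or below the controls. With all 4 mutants the log2 changes were 0.86 for Acta1 (adjusted p 0.1416), 1.45 for Acta2 (adjusted p 0.1501) and 0.58 for Actn2 (adjusted p 0.3563). Without that library they were 1.05 for Acta1 (SE 0.18, adjusted p 0.0177), 1.74 for Acta2 (SE 0.28, adjusted p 0.01061) and 0.83 for Actn2 (SE 0.17, adjusted p 0.03274). So 4 of 7 tested members rose without it, where 1.98% of genes rose. Because that library stood apart by its low skeletal muscle markers, the adjusted p-values without it are conditional on leaving it out.

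The non-muscle forms stayed close together in these pups. Actn1 stood at 17.6, 17.4 and 16.9 CPM in the Tead1/2 controls and 18.3, 17.9, 18.3 and 17.0 CPM in the mutants, with a log2 change of 0.04 (95% interval -0.07 to 0.15). Actn4 stood at 49.99, 58.2 and 47.5 CPM in controls and 42.8, 43.3, 50.1 and 45.9 CPM in mutants, with a log2 change of -0.19 (adjusted p 0.2113). Actn3 had a log2 change of -0.39 (adjusted p 0.31). Neither Actb (-0.12, adjusted p 0.2319) nor Actg1 (-0.09, adjusted p 0.3861) passed the test.

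The Insm1 and Tead1/2 effects at P2 were compared in a model with an interaction term. The difference passed the threshold for 0 members and 0.0% of 20837 genes by edgeR, with 1435 genes and 2 members at an unadjusted p under 0.05. DESeq2 called 17 genes and 0 members. The difference, Tead1/2 minus Insm1, was -1.28 on the log2 scale for Acta1 (95% interval -2.02 to -0.55, adjusted p 0.5413) and -0.97 for Actn2 (-1.84 to -0.11, adjusted p 0.6967). For Actc1 it was 1.07 (-1.49 to 3.64, adjusted p 0.9313). For Acta2 it was -0.54, for Actn1 0.24, for Actn3 -0.16 and for Actn4 0.10 (adjusted p 0.8699 to 0.9657). The intervals of Acta1, Actn2 and Actc1 are wide, and that of Actc1 includes 0. These differences include the library labelled Tead1/2 mutant 4. Without that library they were -1.09 for Acta1, -0.72 for Actn2, 1.47 for Actc1 and -0.24 for Acta2, and 0 members passed.

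The partners of these proteins were counted in lists by role. In Insm1 mutants at P2, 12 of 16 tested genes of the thin filament and its ends rose (median log2 change 1.72). Among them were Lmod3, which nucleates actin in sarcomeres (5.54, adjusted p 0.002592), and Tnnc2, fast troponin C (4.56, adjusted p 0.003477). Lmod3 had a mean of 0.00670 CPM in the controls, so the size of its change rests on almost no counts. Tnnc2 was also low there (mean 0.0718 CPM), and the size of its change rests on few counts. Of the Z-disc partners of alpha-actinin 5 of 17 rose (median 0.31), among them the giant scaffold Ttn (2.54, adjusted p 0.0002688) and Myoz2 (4.48, adjusted p 0.005472). Myoz2 had a mean of 0.0269 CPM in the controls, so the size of its change rests on very few counts. Of 10 smooth muscle contractile genes 2 rose, Des (1.42) and Tpm2 (1.25), both of which striated muscle also uses, and the median was -0.05. None of 6 cytoplasmic actin and SRF cofactor genes (1 at an unadjusted p under 0.05, median -0.08) and none of 10 non-muscle partners of Actn1 and Actn4 (0 at that p, median -0.11) passed edgeR's test. Of the skeletal muscle markers 20 of 26 rose, with a median of 2.64. Without the library labelled mutant 4, Tead1/2 mutants had 10 of 15 thin filament genes higher (median 1.24), 3 of 18 Z-disc partners (0.26), 1 of 10 smooth muscle genes (0.09), 0 of 6 cytoplasmic actin genes (1 at an unadjusted p under 0.05) and 0 of 10 non-muscle partners (3 at that p). With it, 0 genes of these lists passed edgeR's test, and 11 of 16 thin filament genes and 9 of 18 Z-disc partners had an unadjusted p under 0.05.

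Mural cell markers were read beside Acta2, since vessels also make it. At P2 0 of 11 tested mural markers passed edgeR's test in Insm1 mutants (1 at an unadjusted p under 0.05, median log2 change -0.14). The 12 mural markers summed to 186 to 245 CPM over the Insm1 libraries and 165 to 206 CPM over the Tead1/2 libraries. Myh11, smooth muscle myosin, was between 0.412 and 1.42 CPM in all 15 libraries.

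The genes whose P2 levels followed the members most closely over the 15 libraries were found by Pearson's r of log2 CPM, given as a description because the points share groups. Only genes above a floor on mean CPM were searched. For Acta1 these were Mylpf (r 0.971), Myh3 (0.965) and Myl4 (0.95), each a myosin gene. For Actc1 they were Mymx (0.991), a myoblast fusion gene, Klhl41 (0.990) and Tnni1 (0.986). For Acta2 they were Tpm2 (0.967), Myh3 (0.967) and Smyd1 (0.959), and none was a mural marker. The mural markers Myh11, Tagln and Cnn1 lay below that floor and could not have been listed, so their absence says nothing. Actn2 followed Atp2b3 (0.932), Ttn (0.929) and Slc35f1 (0.922), and Atp2b3 encodes a calcium pump of neurons. Actn1 followed Wnk2, Tcf7l2 and Tmem8b (0.976 to 0.978), and Actn4 followed Tmem131 (0.986) and Hnrnpul2 (0.985). Actn3 had looser likenesses, the closest being Pex11a (0.761). Among the members, Actc1 and Acta2 had an r of 0.949, Acta1 and Actc1 0.901, and Actn1 and Actn4 0.927.

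The same 4 genes differed at P7 in the single-cell libraries, where UMIs were summed over the kept cells of each cerebellum. Age, method and choice of cells all differ from the P2 bulk RNA, so sizes of change are not compared between the ages. Actc1 stood at 2.80 and 3.03 CPM in Insm1 controls and 102.9, 102.0 and 120.6 CPM in Insm1 mutants. In the Tead1/2 controls it stood at 1.15 and 1.17 CPM, and in the mutants at 191, 232 and 183 CPM. Each mutant was above each control by a wide gap, a rise of 37.4-fold with Insm1 (log2 change 5.22, SE 0.15, adjusted p 7.792e-09) and 174-fold with Tead1/2 (7.44, SE 0.17, adjusted p 7.385e-10). Acta1 stood at 2.18 and 1.31 CPM in Insm1 controls and at 40.7, 74.0 and 60.6 CPM in Insm1 mutants. In the Tead1/2 libraries it stood at 0.803 and 0.977 CPM in controls and at 189.8, 186.8 and 169.5 CPM in mutants. Acta1 rose 32.2-fold with Insm1 (log2 change 5.01, SE 0.29, adjusted p 4.188e-07) and 207-fold with Tead1/2 (7.69, SE 0.32, adjusted p 1.839e-08).

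Acta2 stood at 0.295 and 0.316 CPM in Insm1 controls, 16.0, 13.99 and 16.9 CPM in Insm1 mutants, 0.268 and 0.273 CPM in the Tead1/2 controls and 31.1, 37.6 and 24.4 CPM in the Tead1/2 mutants. The controls of both alleles were near each other and no mutant came near them. Acta2 rose 50.8-fold with Insm1 (log2 change 5.67, SE 0.27, adjusted p 1.136e-07) and 113-fold with Tead1/2 (6.83, SE 0.26, adjusted p 1.081e-08). Actn2 stood at 5.01 and 4.43 CPM in Insm1 controls, 112, 156 and 179 CPM in Insm1 mutants, 2.73 and 3.67 CPM in the Tead1/2 controls and 425, 456 and 359.7 CPM in the Tead1/2 mutants. The groups did not overlap, and Actn2 rose 31.3-fold with Insm1 (log2 change 4.97, SE 0.23, adjusted p 1.021e-07) and 131-fold with Tead1/2 (7.04, SE 0.25, adjusted p 6.731e-09).

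The sizes of these 4 rises depended on which cells were summed, and each passed the test in every setting. With high doublet scores kept, the log2 changes with Insm1 were 6.07 for Acta1, 6.501 for Actc1, 6.53 for Acta2 and 5.66 for Actn2, all larger than above. Over all deposited barcodes, those with Tead1/2 were 6.11 for Acta1, 5.73 for Actc1, 5.17 for Acta2 and 5.79 for Actn2, all smaller than above. Acta2 with Tead1/2 was 6.20 with high doublet scores kept. Over all barcodes the changes with Insm1 were 5.28 for Acta1, 5.56 for Actc1, 5.45 for Acta2 and 5.06 for Actn2.

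The other alpha-actinins moved little or rested on few UMIs. Actn4 stood at 97.1 and 98.2 CPM in Insm1 controls, 119, 119 and 123 CPM in Insm1 mutants, 110.4 and 119.5 CPM in Tead1/2 controls and 142, 149.8 and 144 CPM in Tead1/2 mutants. It rose 1.23-fold with Insm1 (adjusted p 0.0016) and 1.27-fold with Tead1/2 (adjusted p 0.0003967). Actn1 stood at 24.8 and 25.7 CPM in Insm1 controls and 35.7, 41.8 and 41.4 CPM in Insm1 mutants, a 1.57-fold rise (log2 change 0.65, SE 0.08, adjusted p 0.0001981). In Tead1/2 libraries it stood at 30.4 and 30.6 CPM in controls and 32.3, 35.1 and 34.8 CPM in mutants, a log2 change of 0.16 that did not pass (adjusted p 0.141). Actn3 was at 0.0803 and 0.313 CPM in Tead1/2 controls and 1.43, 1.07 and 1.65 CPM in Tead1/2 mutants (log2 change 2.92, SE 0.65, adjusted p 0.003877), a call lost without control 1 (2.13, adjusted p 0.06031). In the Insm1 libraries Actn3 lay between 0.0356 and 0.483 CPM and did not pass (0.16, adjusted p 0.9128). Actg2 had 0 to 2 UMIs in each library.

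Counted together, 6 of 7 tested members rose with each allele at P7, where 16.7% of 19945 genes rose with Insm1 and 24.4% with Tead1/2. The cytoplasmic actin Actb had a mean of 712 CPM in Insm1 controls and 559 in Insm1 mutants (log2 change -0.35, adjusted p 0.1874), and fell by 0.61 on the log2 scale with Tead1/2 (SE 0.19, adjusted p 0.02063). The 30 skeletal muscle markers summed to 85.7 to 194 CPM in the 4 control libraries, 5121 to 6635 CPM in Insm1 mutants and 16257 to 21735 CPM in the Tead1/2 mutants.

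**Figure D2:**
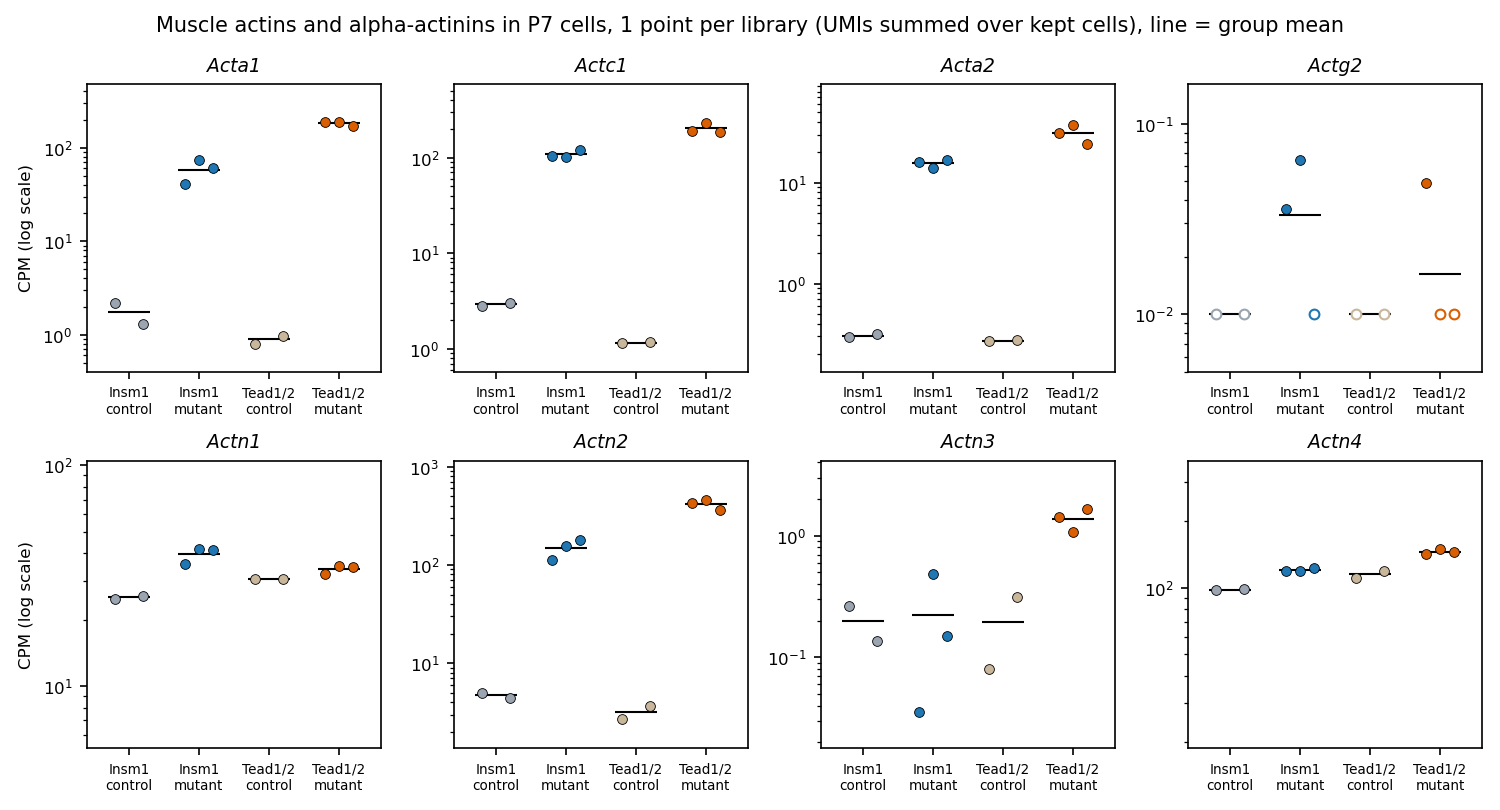
CPM on a log axis for the 8 members in 10 P7 single-cell libraries, from UMIs summed over kept cells, with 1 point per library and a line at each group mean. Open points in the Actg2 panel are libraries with 0 UMIs, and in the Acta1, Actc1, Acta2 and Actn2 panels every mutant lies above every control.

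The change at P7 was larger with Tead1/2 than with Insm1 for 3 members, by a model with an interaction term. The difference was 2.68 on the log2 scale for Acta1 (SE 0.46, adjusted p 0.01273), 2.22 for Actc1 (SE 0.23, adjusted p 0.00155) and 2.07 for Actn2 (SE 0.31, adjusted p 0.006253). For Actn1 the difference was in the other direction, -0.49 (SE 0.12, adjusted p 0.04825). These 3 and 1 of 7 tested members compare with 2.14% of 19945 genes higher and 1.05% lower. Acta2 had a difference of 1.16 (adjusted p 0.2972), Actn3 of 2.76 (adjusted p 0.2377) and Actn4 of 0.04 (95% interval -0.11 to 0.18). The size rested on the choice of cells: over all deposited barcodes, where cells with high doublet scores and shallow barcodes are included, the differences were 0.83 for Acta1, 0.17 for Actc1 and 0.74 for Actn2, and 0 members passed. With the high doublet scores kept among the filtered cells they were 1.83, 1.12 and 1.41 and still passed. The Acta1 call was also lost without Insm1 control 1 (2.22, adjusted p 0.1377) or Tead1/2 control 1 (2.53, adjusted p 0.06991), the Actn2 call without Insm1 control 1 (1.97, adjusted p 0.05168), and the Actn1 call without any 1 library except Insm1 mutant 1 or Tead1/2 mutant 3 (adjusted p 0.05696 to 0.165) or with doublets kept (0.1156).

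**Figure D3:**
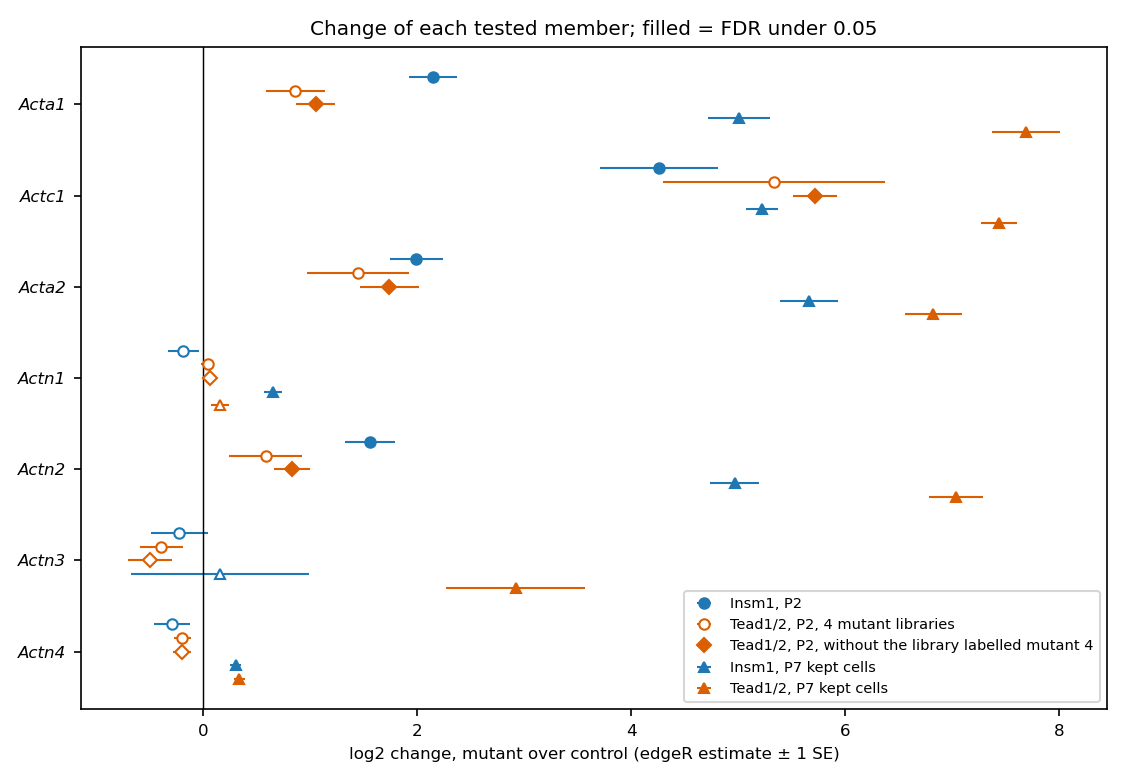
Log2 change of 7 members in mutants against controls, with bars of 1 standard error, for Insm1 and Tead1/2 at P2 and P7, and for Tead1/2 at P2 also without the library labelled mutant 4. Filled points passed an adjusted p of 0.05. Among the P7 points, those of Actc1, Acta1, Acta2 and Actn2 lie farthest to the right (4.97 to 7.69).

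Among the partner lists at P7, the thin filament and Z-disc lists had the most genes higher. With Insm1, 19 of 20 thin filament genes rose (median log2 change 4.70), as did 22 of 24 Z-disc partners (3.53), 6 of 11 smooth muscle genes (0.87) and 29 of 30 skeletal markers (5.01), against a median of 0.02 over all genes tested. With Tead1/2, 19 of 20 thin filament genes rose (6.81), as did 24 of 24 Z-disc partners (4.87), 8 of 11 smooth muscle genes (1.64, with 1 lower) and 30 of 30 skeletal markers (7.22), against 0.05 over all genes tested. Slow troponin T, Tnnt1, changed by 5.70 and 7.68 with the 2 alleles, the leiomodin gene Lmod2 by 5.46 with Insm1 and fast troponin I, Tnni2, by 7.66 with Tead1/2. Leading Z-disc partners were Synpo2l (5.53) and Mypn (5.35) with Insm1, and Myot (7.90) and Ttn (7.86) with Tead1/2. Of the smooth muscle list, Des (5.18 and 6.93) and Tpm2 (4.79 and 6.67) changed most, and 3 genes of that list stand in the striated lists too. Of 6 cytoplasmic actin and SRF cofactor genes, 3 rose and 1 fell with Insm1, and 1 rose and 1 fell with Tead1/2. The SRF cofactor gene Myocd rose with both (1.62 and 2.49), and Srf rose with Insm1 (0.54). Of 10 non-muscle partners, 6 rose and 1 fell with Insm1, and 6 rose and 2 fell with Tead1/2, among them Pdlim7 (1.27 and 1.58), Vasp with Insm1 (1.06) and the vinculin gene Vcl with Tead1/2 (1.32). The interaction passed for 13 of 20 thin filament genes (1 of them lower), 13 of 24 Z-disc partners and 2 of 11 smooth muscle genes, led by Tnni2 (3.30), Tnnt3 (2.62), Myoz2 (2.84), Ttn (2.56), Tpm2 (1.88) and Synpo2 (0.92).

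The UMIs of the 4 genes at P7 lay in a few clusters of cells. Clusters were formed without the members, and 4 of them, 5048 cells together, had more skeletal muscle markers than any other kind (11 to 29 of 30 among their genes). These muscle-like clusters held 11.8%, 12.5% and 13.5% of kept cells in the Insm1 mutants, 19.9%, 25.6% and 19.4% in the Tead1/2 mutants, 0.0886% and 0.0680% in the Insm1 controls and 0 cells in the Tead1/2 controls. Within the 6 mutant libraries they held 97.3% to 99.2% of Acta1 UMIs, 95.6% to 98.7% of Actc1 UMIs, 95.8% to 99.0% of Acta2 UMIs and 96.4% to 98.9% of Actn2 UMIs. They held 13.5% to 15.5% of all UMIs in the Insm1 mutants and 26.6% to 34.3% in the Tead1/2 mutants. Actn1 was spread otherwise, with 9.76% to 11.6% of its UMIs in these clusters in Insm1 mutants and 23.1% to 30.4% in Tead1/2 mutants, below their share of all UMIs in every library. Actn4 had 27.5% to 29.6% and 36.9% to 47.0% there, above it in every library.

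In the Insm1 controls, 5 cells of library 1 held 62.2% of its Acta1 UMIs (46 of 74), 51.6% of its Actc1 UMIs and 60.0% of its Acta2 UMIs (6 of 10). In library 2, 3 cells held 17.2%, 52.2% and 71.4% of them. Where those cells came from was not tested. The Insm1 control levels above therefore include these few cells, and the Tead1/2 control levels include no cells of these clusters.

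Pooled over libraries, muscle-like cells had 562 CPM of Acta1 (95% exact binomial interval 556 to 568), 682 of Actc1, 104 of Acta2 (101 to 107) and 1295 of Actn2. Intervals of this kind cover counting error only. No other class passed 3.13 CPM of Acta1, 9.37 of Actc1 or 0.986 of Acta2. Actn2 reached 29.0 CPM in the 29 Purkinje-like cells and at most 7.82 CPM elsewhere. Actg2 had 0 of 54123099 UMIs in muscle-like cells, which allows up to 0.0554 CPM at the floor of 3 UMIs taken for a count of 0. Coding sequences of the actins are alike, and how reads that fit several of them were counted at P7 is not given in the sources used here. How many actin reads were given to a paralog was not tested.

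Microglia-like cells, which should lack the muscle actins, were used to gauge a background for those genes. Whether their actin UMIs came from free RNA was not tested. After each cell was thinned to 2000 UMIs, Actc1 was seen in 8.26%, 7.68% and 8.64% of kept cells of the Insm1 mutants, 0.307% and 0.309% of the Insm1 controls, 11.7%, 17.4% and 13.5% of the Tead1/2 mutants and 0.235% and 0.299% of the Tead1/2 controls. In microglia-like cells it was seen in 0% to 2.13% (42 to 303 cells per library, median 3760 to 5428.5 UMIs). The control shares lie inside that range, but so few cells cannot resolve shares this low. Acta2 was seen in 1.70% to 2.17% of cells of the Insm1 mutants and 2.86% to 3.91% of the Tead1/2 mutants, against 0% to 0.0362% of the controls and 0% to 0.483% of microglia-like cells. An exact permutation test of 2 against 3 libraries cannot go below a two-sided p of 0.2, and it gave 0.2 for Actc1, Acta1, Acta2, Actn2, Actn1 and Actn4 with either allele (0.267 after adjustment over 16 tests). Without thinning the mean difference in Actc1 share was 11.4 percentage points with Insm1, against 7.88 with it, and 20.8 with Tead1/2, against 13.9.

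The Acta2 UMIs were in cells with skeletal muscle transcripts. Of thinned cells of the Insm1 mutants with an Acta2 UMI, 90 of 96, 72 of 76 and 52 of 55 carried at least 3 of the 30 skeletal muscle markers. In the Tead1/2 mutants these were 159 of 163, 224 of 227 and 135 of 140. In each of the 6 libraries 0 of them carried 3 or more mural markers. Only 1 to 10 kept cells per mutant library carried that many at all, so this count says little about mural cells. Among kept cells the mural markers Cnn1, Tagln and Myh11 stood at 0 to 0.93 CPM in every library, while the 12 mural markers summed to 34.0 to 50.3 CPM in the controls, 82.7 to 99.1 in the Insm1 mutants and 124.7 to 146.6 in the Tead1/2 mutants. Abcc9 held much of that rise, from 1.62 to 4.02 CPM in the controls to 18.97 to 28.9 in the Insm1 mutants and 52.9 to 77.7 in the Tead1/2 mutants, and it is also known from muscle. Of 10 tested mural markers 3 rose with Insm1 and 5 with Tead1/2, where 16.7% and 24.4% of all genes tested rose.

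Within the muscle-like cells the members did not run in parallel. Clusters 23, 27 and 26 (2274, 1243 and 1432 cells) had 11, 22 and 29 of the skeletal markers. In that order Acta1 stood at 8.22, 107 and 939 CPM, Actn2 at 169.8, 950.0 and 1876 CPM and Actc1 at 517, 698 and 751 CPM. Acta2 was highest in the middle cluster, at 52.1, 255 and 78.6 CPM, and this order held in each of the 6 mutant libraries (44.4 to 61.7, 223 to 281 and 73.0 to 96.5 CPM). Actn4 ran the other way (322, 204 and 172 CPM), and Actn1 rose in level along the order (11.1, 28.6 and 40.8 CPM), except that in Insm1 mutant 3 clusters 27 and 26 were reversed for both. Actn3 was at 0, 0 and 5.38 CPM. The fourth muscle-like cluster held 99 cells at a median of 1828 UMIs, 71 of them from Insm1 mutant 2.

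The same pattern was seen when cells were grouped by how many skeletal markers they carried after thinning to 2000 UMIs, a measure of equal depth that uses no member. These bins use the same libraries and the same markers that named the clusters, so the groupings are not independent. In cells with 3 to 5, 6 to 9, 10 to 14 and 15 to 30 markers, Acta2 in Tead1/2 mutant 2 averaged 0.0560, 0.329, 0.324 and 0.175 UMIs per cell. Over all 6 mutant libraries Acta2 lay at 0.0549 to 0.112 in the lowest bin, 0.296 to 0.478 in the next, 0.273 to 0.535 in the third and 0.167 to 0.423 in the highest. Acta1 lay at 0.00694 to 0.0267, 0.0769 to 0.135, 0.719 to 1.00 and 1.35 to 2.04 in the same bins. Thus in each of the 6 libraries Acta1 was at its highest with 15 to 30 markers, where Acta2 was below its own highest. The bins of Acta1 did not overlap between libraries. In Insm1 mutant 3 Acta2 differed little over the upper bins (0.478, 0.460 and 0.423), and in Insm1 mutant 1 it was highest in the third bin (0.535). No order in time was measured. Actn2 lay at 0.187 to 0.316, 1.04 to 1.37, 2.62 to 3.28 and 3.17 to 4.38, and Actc1 at 0.486 to 1.00 in the lowest bin and 1.48 to 2.20 in the highest. Actn4 was lower in the upper bins, at 0.439 to 0.626 in the lowest and 0.308 to 0.467 in the highest. The highest bin held 26 to 251 cells per library.

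**Figure D4:**
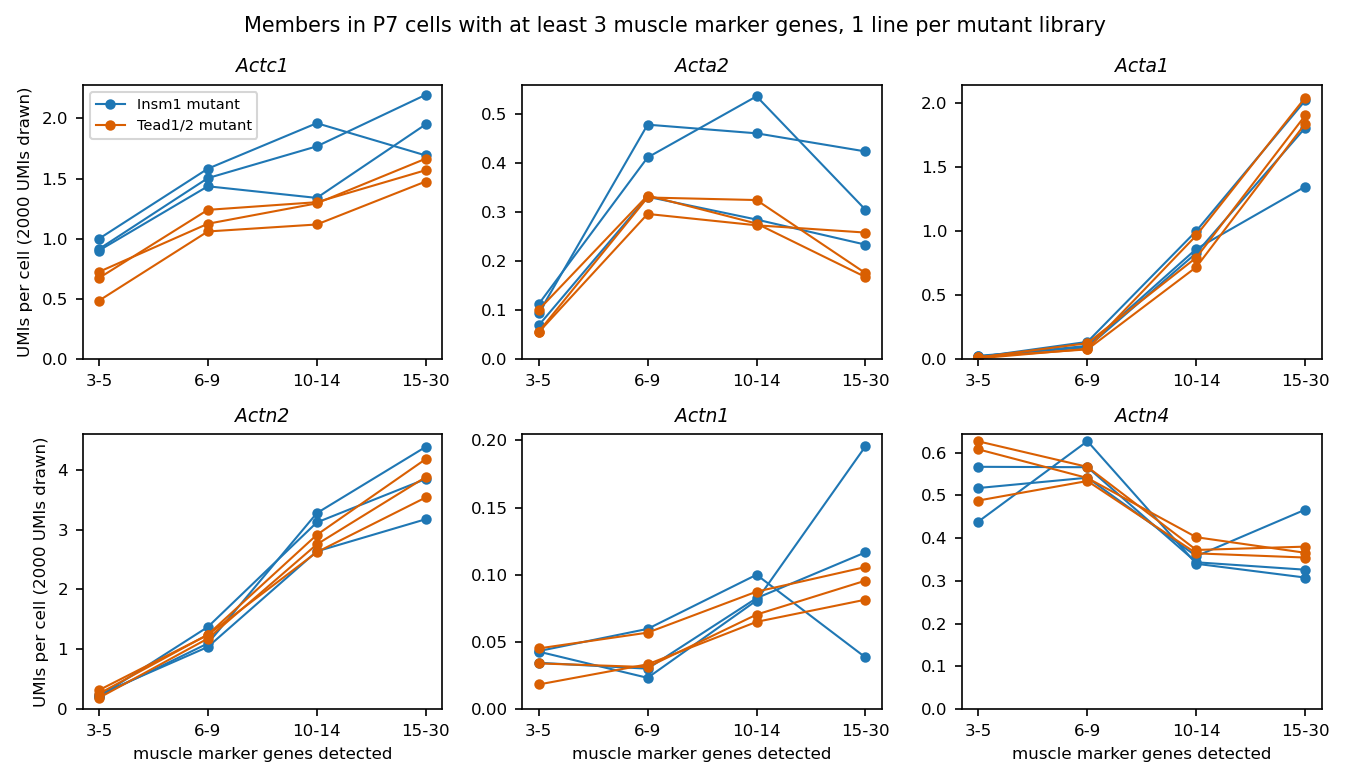
Mean UMIs per cell, each cell thinned to 2000 UMIs, of Actc1, Acta2, Acta1, Actn2, Actn1 and Actn4 against the number of skeletal muscle markers seen in the cell, 1 line for each of the 6 mutant libraries at P7. Acta1 and Actn2 are highest in the cells with most markers, while Acta2 lies at 0.296 to 0.478 with 6 to 9 markers and at 0.167 to 0.423 with 15 to 30.

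Cells with at least 3 of the skeletal markers made up 9.94%, 10.6% and 11.1% of thinned cells in the Insm1 mutants and 19.3%, 26.9% and 19.7% in the Tead1/2 mutants, against 0.143% to 0.354% in the controls. Within these cells the 2 mutants were compared directly. Acta1 stood at 319, 519.5 and 414 CPM in Insm1 mutants and at 656, 538 and 665 CPM in the Tead1/2 mutants, with no overlap. It was 1.48-fold higher with Tead1/2 (log2 difference 0.57, SE 0.16, adjusted p 0.04994), and the call was lost without Insm1 mutant 1 or 3, without Tead1/2 mutant 1 or 3, or with 5 markers required (adjusted p 0.1762). This 1 of 7 tested members compares with 5.34% of 14437 genes higher. Actn2 stood at 861, 1088 and 1211 CPM against 1462, 1312 and 1403 CPM, also without overlap, and did not pass by edgeR (0.40, adjusted p 0.06729), but did by DESeq2 (0.40, adjusted p 0.01817) and with high doublet scores kept (0.86, adjusted p 0.001468). Actn3 stood at 0, 2.12 and 0 CPM against 3.86, 2.52 and 5.23 CPM and did not pass (2.17, adjusted p 0.09408), but did without Insm1 mutant 2 (adjusted p 0.01839, both other Insm1 mutants being at 0) and with high doublet scores kept (2.53, adjusted p 0.01485), and it missed by DESeq2 too (adjusted p 0.4069). Actg2 was below the filter on low counts.

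Actc1 stood at 737, 679.6 and 772 CPM in these cells of the Insm1 mutants and 647, 651 and 699.7 CPM in those of the Tead1/2 mutants, with a log2 difference of -0.13 (95% interval -0.29 to 0.03, adjusted p 0.372). Acta2 differed by -0.11 (-0.29 to 0.08), Actn4 by -0.08 (-0.22 to 0.06) and Actn1 by 0.05 (-0.15 to 0.25). All 4 intervals include 0, and they hold for the kept cells only. With high doublet scores kept, Actc1 (0.55, adjusted p 0.001635), Acta2 (0.61, adjusted p 0.0133) and Actn4 (0.26, adjusted p 0.006621) were higher with Tead1/2 and passed, so their direction turned with that choice. The cells with 15 or more markers were 46 of 461, 60 of 476 and 26 of 282 in the Insm1 mutants and 227 of 1047, 251 of 1565 and 221 of 965 in the Tead1/2 mutants. Their part in the Acta1 difference was not tested, and the Acta1 ranges of the 2 mutants overlap within that bin and within each of the others. In the partner lists, 11 of 20 thin filament genes and 12 of 23 Z-disc partners were higher with Tead1/2, and 1 of each lower, among them Tmod4 (1.17), Fhl2 (1.69), Nebl (-1.26) and Ankrd2 (-2.24). These lists share genes with the skeletal markers that chose the cells, so they are not independent of that choice. The shared genes are Tnnt1, Tnnt2, Tnnt3, Tnni1, Tnnc1, Tnnc2, Neb and Klhl41 of the thin filament and Ttn and Des of the Z-disc. Of 9 smooth muscle genes 4 were higher, among them Myocd (0.89) and Synpo2 (0.65), and of 10 non-muscle partners 5 were higher and 1 lower, among them Tgfb1i1 (1.504) and Pdlim1 (0.69).

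In cells of the granule lineage, in which Atoh1Cre acts, the striated actins and Actn2 stood at a few CPM. Actc1 also stood at a few CPM in other cell classes of the same mutant libraries. Actc1 stood at 1.13 and 1.61 CPM in Insm1 controls, 4.61, 5.04 and 4.45 CPM in Insm1 mutants, 1.19 and 1.46 CPM in the Tead1/2 controls and 4.28, 8.70 and 5.47 CPM in the Tead1/2 mutants. Every mutant was higher, and the test passed with Insm1 (log2 change 1.82, SE 0.31, adjusted p 0.001358) and with Tead1/2 (2.23, SE 0.30, adjusted p 0.0001962). Outside the lineage, Actc1 in astroglia-like cells stood at 3.38, 10.7 and 8.48 CPM in the Insm1 mutants and 2.10, 9.83 and 5.84 CPM in the Tead1/2 mutants, against 0 to 1.59 CPM in the controls. In GABAergic interneuron-like cells it stood at 1.34, 3.66 and 3.28 CPM and at 4.11, 8.32 and 3.89 CPM, against 0 to 3.27 CPM. In Insm1 mutant 1 and Tead1/2 mutant 1 the granule-lineage level was above both of these classes, and in each other mutant library it lay between them. The granule-lineage levels are not read as expression in granule cells, which was not tested.

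Actn2 was higher in the granule lineage with Tead1/2 (1.27, SE 0.18, adjusted p 0.0002756) and did not pass with Insm1 (0.53, adjusted p 0.07517). It stood at 7.91, 8.96 and 7.29 CPM there in the Tead1/2 mutants and at 7.46, 8.56 and 5.25 CPM in their GABAergic interneuron-like cells. The interneuron-like level was the lower of the 2 in each library, a difference that was not tested. Acta1 was higher with Tead1/2 (1.54, adjusted p 0.01419, and 0.1417 without Tead1/2 control 1 or 0.05923 without control 2), and Acta2 with Insm1 (2.10, adjusted p 0.03784, lost by DESeq2 at 0.1082 and without any 1 of the Insm1 libraries or Tead1/2 controls), a call on 2 to 7 Acta2 UMIs per Insm1 library. With each allele 3 of 6 tested members were called higher, where 11.1% of 16478 genes rose with Insm1 and 11.9% with Tead1/2. In these cells the skeletal markers summed to 84.0 to 103.8 CPM in the controls, 200.3 to 242 in the Insm1 mutants and 341 to 1008 in the Tead1/2 mutants. After cells with a UMI of any skeletal marker were left out, Actc1 did not pass with Insm1 (1.13, adjusted p 0.2106) or Tead1/2 (1.47, adjusted p 0.1128), and neither did Actn2 with Tead1/2 (0.75, adjusted p 0.1071). The mutant sums held 9566441 to 19208932 UMIs per library before this step and 2206753 to 6717496 after it. The loss of these calls therefore cannot be told apart from the loss of depth. In the granule lineage 7 of 16 thin filament genes were higher with Insm1 and 14 of 16 with Tead1/2, led by Nebl (4.56 and 3.16), Tmod1 with Insm1 (2.68) and Tnnt1 with Tead1/2 (3.97). Of 16 Z-disc partners 8 and 10 were higher, led by Flnc (2.66 and 2.96), Cryab with Insm1 (1.86) and Synpo2l with Tead1/2 (3.19). Other leading genes were Myocd (1.84 and 2.27), Tpm2 (1.12 and 1.65), Pdlim7 (0.90 and 0.83), Srf (0.65) and Tgfb1i1 (1.15) with Insm1, and Synpo with Tead1/2 (-0.65). Whether these partners were at the level of other classes was not tested.

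Actn1 was the member whose granule-lineage call with Insm1 remained past the threshold after those cells were left out. It stood at 17.3 and 18.0 CPM in Insm1 controls and 23.1, 36.5 and 29.3 CPM in Insm1 mutants, a rise of 0.75 on the log2 scale (SE 0.15, adjusted p 0.003804). Without the cells that carried a skeletal marker it was 0.69 (adjusted p 0.0096). In the Tead1/2 libraries it stood at 19.9 and 20.8 CPM in controls and 17.0, 16.6 and 16.2 CPM in mutants, all mutants lower, and did not pass (-0.29, adjusted p 0.2175). The difference between the 2 effects was not tested in these cells. Among granule progenitor-like cells Actn1 stood at 24.6 and 26.8 CPM in Insm1 controls, 31.4, 53.9 and 37.9 CPM in Insm1 mutants, 26.3 and 29.8 CPM in Tead1/2 controls and 19.5, 18.6 and 21.0 CPM in Tead1/2 mutants. Different clusters hold these cells: clusters 2 and 7 were mostly control cells (82.8% and 84.8%) and clusters 1, 24 and 25 almost all mutant cells (0% to 0.94% control). Actn4 in the granule lineage lay at 95.8 to 114 CPM in the controls and 101 to 131 CPM in the mutants and passed with neither allele (0.08 and 0.17, adjusted p 0.4424 and 0.09256).

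The non-muscle alpha-actinins had their highest levels in vessel cells. Pooled over libraries, Actn1 stood at 213 CPM in endothelial-like cells, 112 in astroglia-like cells, 77.7 in meningeal fibroblast-like cells and 51.3 in microglia-like cells. Muscle-like cells had 31.4 CPM of Actn1 and granule neuron-like cells 12.4 CPM, the lowest. Actn4 stood at 487 CPM in endothelial-like cells, 214 in muscle-like cells, 153 in fibroblast-like cells and 138 in granule progenitor-like cells, with the lowest value, 57.6 CPM, in astroglia-like cells. The 2 genes thus differ in order, astroglia-like cells being second for Actn1 and last for Actn4.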

How the data were processed

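The P2 tables hold expected counts per gene, deposited by the authors and made with RSEM per the file names. Each of the 2 tables carries the name of the other's allele, and columns were matched to samples by the column names in the labels. The submitters' processing notes list STAR 2.7.9a, RSEM 1.3.3 and build GRCm38.p6, with no role stated. The P7 matrices hold raw UMI counts per barcode from Parse Evercode WT v3, deposited by the authors, per the labels. The gene tables name a GRCm39 build per the file headers, and the counting tool is not given in the sources used here. P7 libraries were matched to genotype and dissection through the cell metadata.

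Expected counts, of which 6.84% to 8.77% per table column were not whole, were rounded, and 92 spike-in rows were left out. edgeR 4.0.16 (R 4.3.3) fitted the quasi-likelihood test with TMM factors and its own filter on low counts, over all genes, with a Benjamini-Hochberg adjusted p of 0.05 as threshold. CPM of libraries and of summed kept, granule-lineage or muscle-transcript cells use TMM factors, those of classes and clusters the plain UMI total, and log2 CPM for correlations a prior count of 2. Each allele was fitted on its own libraries at P2. At P7 summed UMIs of all 10 libraries shared 1 model, as did the tests of differences between alleles. DESeq2 1.42.0 was an alternative, as were other scaling, no low-count filter, a replicate block, a dissection block and leaving out each library. Tests were checked on simulated data.

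Cells needed at least 1000 UMIs and 500 genes and at most 15% mitochondrial UMIs. Scrublet (scanpy 1.11.5) gave doublet scores. Its automatic threshold removed 0% to 55.3% of a library, so cells scoring 0.05 or more were removed in every library, a threshold chosen after seeing the scores. Keeping those cells, removing the top 5% or using all barcodes were alternatives. The 47642 kept cells were clustered (2000 variable genes, 30 components, resolution 1) without the members, and named from 13 marker lists. Kept libraries held 19622702 to 51575701 UMIs. Replicates of a P2 group differed by more than counting noise (chi-square per degree of freedom 9.16 to 73.5), so each counted once.

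The members are described in each comparison where they passed the low-count filter. From each partner list up to 2 called genes with the largest log2 change are named for each comparison, and for each member the 3 genes most alike, of which 1 is not reported here. The members, lists and thresholds were chosen with earlier results of these data known. Levels are not compared between genes, since gene lengths were not used here.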

Additional observations from a re-analysis of the deposited data

Results flagged for a closer look

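At P2 the library Insm1 control 2 stood apart from the other 3 Insm1 controls for both striated actins. Its Acta1 level was 1.48 CPM against 1.05 to 1.11 CPM, a gap of 0.863 of the whole range of the group. Its Actc1 level was 5.39 CPM against 0.479 to 1.25 CPM, a gap of 0.842 of the range. Of 24 groups of member values screened, chance places about 1 in 20 beyond this limit. The rise of Actc1 in the Insm1 mutants had a log2 change of 4.26 with this library and 5.49 without it.

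At P7 the effects of the 2 alleles on summed kept cells differed by the test of the interaction, Tead1/2 minus Insm1, for 4 members. The log2 differences were 2.68 for Acta1, 2.22 for Actc1, 2.07 for Actn2 and -0.49 for Actn1. The kept-cell share in muscle-like clusters moved with the first 3: 11.8% to 13.5% in the Insm1 mutants and 19.4% to 25.6% in the Tead1/2 mutants. The Insm1 controls held 0.0680% to 0.0886% and the Tead1/2 controls 0 cells in those clusters. By the other measure, at least 3 skeletal markers after thinning, the shares were 0.199% and 0.143% in the Insm1 controls. They were 0.163% and 0.354% in the Tead1/2 controls. The control levels also differed (Actc1 2.80 and 3.03 CPM against 1.15 and 1.17 CPM). The part of the cell shares and of the control levels in the differences was not tested.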

How the results depend on the processing

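Of 86 counts of members called in fits that left out 1 library, 78 stayed within 1.5 times the reported count, and of 52 counts under other settings 42 did. With Tead1/2 at P2 the count of members called, 0 as reported, was 3 with no low-count filter, 2 by DESeq2, 4 by DESeq2 without the library labelled mutant 4, and 0 to 4 without single libraries. With the replicate block, which leaves the library labelled mutant 4 without a partner, it was 3. The shared numbers did not pair the pups (correlations of deviations -0.13 to 0.23), and the replicate block changed no other count of members called at P2. At P7 a dissection block ended 1 call among the members, Acta2 in the Insm1 granule lineage (adjusted p 0.05003). The 4 calls of the P7 difference between alleles became 1 to 4 without single libraries and 0 over all barcodes. In the granule lineage without cells carrying a muscle marker, 1 member was called with Insm1 and 0 with Tead1/2. Within muscle-transcript cells, 1 call became 2 by DESeq2, 0 with 5 markers, 6 with doublets kept and 0 to 2 without single libraries. The mean difference in Actc1-positive cells moved from 7.88 to 11.4 points without thinning and 10.1 with doublets kept for Insm1, and from 13.9 to 20.8 without thinning for Tead1/2. Directions turned for changes that had not passed as reported: without single libraries, the P2 differences of Actc1 (-0.16 to 1.47), Actn3 (-0.35 to 0.0599) and Actn4 (-0.0233 to 0.21), Actn3 with Insm1 at P7 (-1.29 to 0.78) and the P7 difference of Actn4 (-0.0198 to 0.0919). The P7 difference of Acta2 was -0.33 with doublets kept, -0.28 over all barcodes and -0.44 with the top 5% removed. Within muscle-transcript cells, keeping doublets gave 0.55 for Actc1, 0.61 for Acta2 and 0.26 for Actn4, which passed, and -0.12 for Actn1, which did not. The cause of these changes was not tested.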

Other observations

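Among kept cells at most 10 per library carried 3 or more mural markers, and none of them had an Acta2 UMI after thinning. When cells with high doublet scores were included, 14 to 55 cells per library carried 3 or more mural markers and fewer than 3 skeletal muscle markers. Of these, 0 to 3 per library had an Acta2 UMI after thinning. Their summed UMIs gave Acta2 at 0 to 89.5 CPM, with 89.0 CPM in Tead1/2 control 2 and 0 in Insm1 control 2. In these cells the levels of mutants and controls overlapped. The choice left out cells with skeletal muscle transcripts, where most Acta2 of the mutants lay. The overlap therefore holds for this narrower set only.

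Within cells of at least 3 skeletal markers in the 6 mutant libraries, those with an Acta2 UMI also had an Actn2 UMI in 74.8% to 80.0% of cases, against 40.9% to 62.0% of those without. The cells with an Acta2 UMI had an Acta1 UMI in 17.3% to 34.1% of cases, against 15.7% to 30.7% of those without, ranges that overlap.

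Actc1 UMIs per cell at equal depth lay lower in the 3 Tead1/2 mutants than in the 3 Insm1 mutants in each bin of marker number: 0.486 to 0.725 against 0.902 to 1.00 with 3 to 5 markers, and 1.48 to 1.67 against 1.69 to 2.20 with 15 to 30. This was noticed in the values and was not tested.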
